A study of Homo sapiens with 16 samples.

Results

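The genes described here are 9 of the 25370 rows of the count table, chosen by their symbols as genes known to respond to the coactivator YAP, to TGF-beta or to both: CTGF, CYR61, ANKRD1, AMOTL2, THBS1, TGFBI, TAGLN, CNN1 and ACTA2. All 9 passed the filter on low counts, which kept 16004 genes. RNA-seq had been performed on HMC3 cells, a single human line labelled as microglial, in 16 libraries, 2 for each of 8 conditions. The conditions were vehicle, 0.1 nM estradiol (E2), 400 nM ketamine, 400 nM (2R,6R)-HNK, 400 nM (2S,6S)-HNK, and each of the 3 drugs at 400 nM together with 0.1 nM E2. HNK stands for hydroxynorketamine, a class of ketamine metabolites, and the pair used here are enantiomers (mirror images). All conditions shared 24 h in serum-free medium followed by a 24 h exposure in medium without serum or phenol red, so the vehicle cells were serum-starved too. Levels are given as CPM, the count of a gene scaled to a common library total after TMM scaling, with n = 2 libraries per condition. The sources used here do not say whether the 2 libraries came from separate cultures, so the p-values measure the spread between these libraries, which may be technical.

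Libraries held 55300614 to 81646165 counts, and the 9 genes together took 0.565% to 0.686% of them. Of counts from 1 to 9, 65.8% were even, against 49.9% of large counts. Whether both reads of some pairs were counted was not tested, so a low count such as those of ACTA2 may stand for fewer fragments than its number. Of 18 microglia markers, 16 had a mean below 1 CPM, C1QA and C1QC were at 0 in all libraries, and CD68 had the highest mean at 20.5 CPM. The summed level of the 10 smooth muscle and pericyte markers ran from 698 CPM to 1012.9 CPM, lowest in vehicle (mean 702 CPM) and highest with E2+ketamine (mean 1003.6 CPM). MCAM (mean 366 CPM), PDGFRB (264 CPM) and CSPG4 (95.8 CPM) made up most of this sum, followed by NOTCH3 (82.7 CPM). ACTG2 (24.5 CPM) and LMOD1 (16.75 CPM) were lower, and the defining markers MYH11 (1.46 CPM) and DES (0.964 CPM) were low. Sums for other kinds of cell were also highest with E2+ketamine, at 6037.1 CPM against 4557.1 CPM in vehicle for fibroblasts, 779 against 558 CPM for epithelium and 141 against 108 CPM for neurons. Most of these 3 sums came from COL1A1 (mean 4548.4 CPM), KRT18 (513.8 CPM) and TUBB3 (106 CPM). Other markers in them were low, such as DCN (0.0474 CPM), EPCAM (0.472 CPM) and RBFOX3 (0.246 CPM). The sums carry no correction for GC content. Microglia markers were highest with E2+ketamine too (27.6 CPM), whereas those of endothelium were highest with E2 (3.3 CPM) and those of astrocytes with ketamine (4.06 CPM). Their part in the results was not tested. In cultures measured in bulk, more cells of a type and more RNA per cell cannot be told apart.

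YAP and its paralog TAZ are coactivators that the Hippo kinases keep out of the nucleus. On rigid or spread cell substrates they enter it and act through TEAD factors on genes such as CTGF, CYR61 and ANKRD1. TGF-beta acts through SMAD factors on matrix and contractile genes, and SRF with its actin-sensing MRTF partners drives TAGLN, CNN1 and ACTA2 in smooth muscle and myofibroblasts. Ketamine is an NMDA receptor blocker, and E2 is the main estrogen.

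The promoters of these genes are shown because TEAD factors bind the letters GGAATG, and the members differ in whether they hold them near the start of the gene. Windows of 300 bases, from 250 before to 50 after the start in RefSeq (GRCh38.p14), were given for 7 of the 9 genes, AMOTL2 and ACTA2 having 2 windows each, and not for CYR61 or TAGLN. At least 1 GGAATG on either strand stood in 5 of the 9 windows, each of a different gene, against 14% of the 35116 windows of all genes. The stretches around the matches are printed on the strand of the gene, with the motif in capitals:
CTGF, chr6:131951442-131951561, minus strand: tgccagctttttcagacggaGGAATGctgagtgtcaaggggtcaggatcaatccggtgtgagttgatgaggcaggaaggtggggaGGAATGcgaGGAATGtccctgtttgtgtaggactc
ANKRD1, chr10:90921190-90921327, minus strand: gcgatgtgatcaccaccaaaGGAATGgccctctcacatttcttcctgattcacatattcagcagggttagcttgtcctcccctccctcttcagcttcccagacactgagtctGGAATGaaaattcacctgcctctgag
AMOTL2, chr3:134374491-134374536, minus strand: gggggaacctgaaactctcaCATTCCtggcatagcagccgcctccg
ACTA2, chr10:88952931-88952976, minus strand: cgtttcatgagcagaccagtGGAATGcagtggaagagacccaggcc
THBS1, chr15:39581013-39581058, plus strand: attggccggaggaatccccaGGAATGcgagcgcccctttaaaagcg

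CTGF held 3 matches, 169, 104 and 95 bases before its start, and ANKRD1 held 2, at 220 and 128 bases. THBS1 held 1 at 46 bases, ACTA2 1 at 183 bases in its second window, and AMOTL2 1 at 69 bases in its second window, there on the opposite strand (CATTCC). No GGAATG was found in the windows of CNN1 and TGFBI. The SRF site CArG was searched only as CCWWWWWWGG, W being A or T, so variant sites would be missed. That form was in no window of the 7 genes and in 1.29% of all windows. The SMAD palindrome GTCTAGAC was in none of theirs and in 0.202% of all. These matches are letters in a short window and were not measured for binding. They are read here only as a description of the genes.

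The level of each gene was compared per kilobase of exon sequence, from gene models on GRCh37, the sequence of the hg19 build used by the authors. The lengths joined all exons of GENCODE models, which gave 6550 bases for TAGLN and 5628 for ACTA2. The authors counted on UCSC gene models, so the order per kilobase depends on these lengths. By median CPM without a length, TAGLN stood highest (1663.4), ahead of CYR61 (1233.4) and THBS1 (1225). CYR61 stood highest at a mean of 335 CPM per kilobase over all libraries, followed by TAGLN (267) and CTGF (263). THBS1 (147), AMOTL2 (108), CNN1 (74.9), TGFBI (41.7) and ANKRD1 (29.3) came next. ACTA2 was lowest at 0.378 CPM per kilobase, with only 89 to 197 counts in a library, which is at the 27th percentile of the genes tested. The other 8 members ranged from the 75.1 to the 99.7 percentile. The smooth muscle actin gene was thus far below the actin-binding genes TAGLN and CNN1 with which it is usually grouped.

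**Figure D1:**
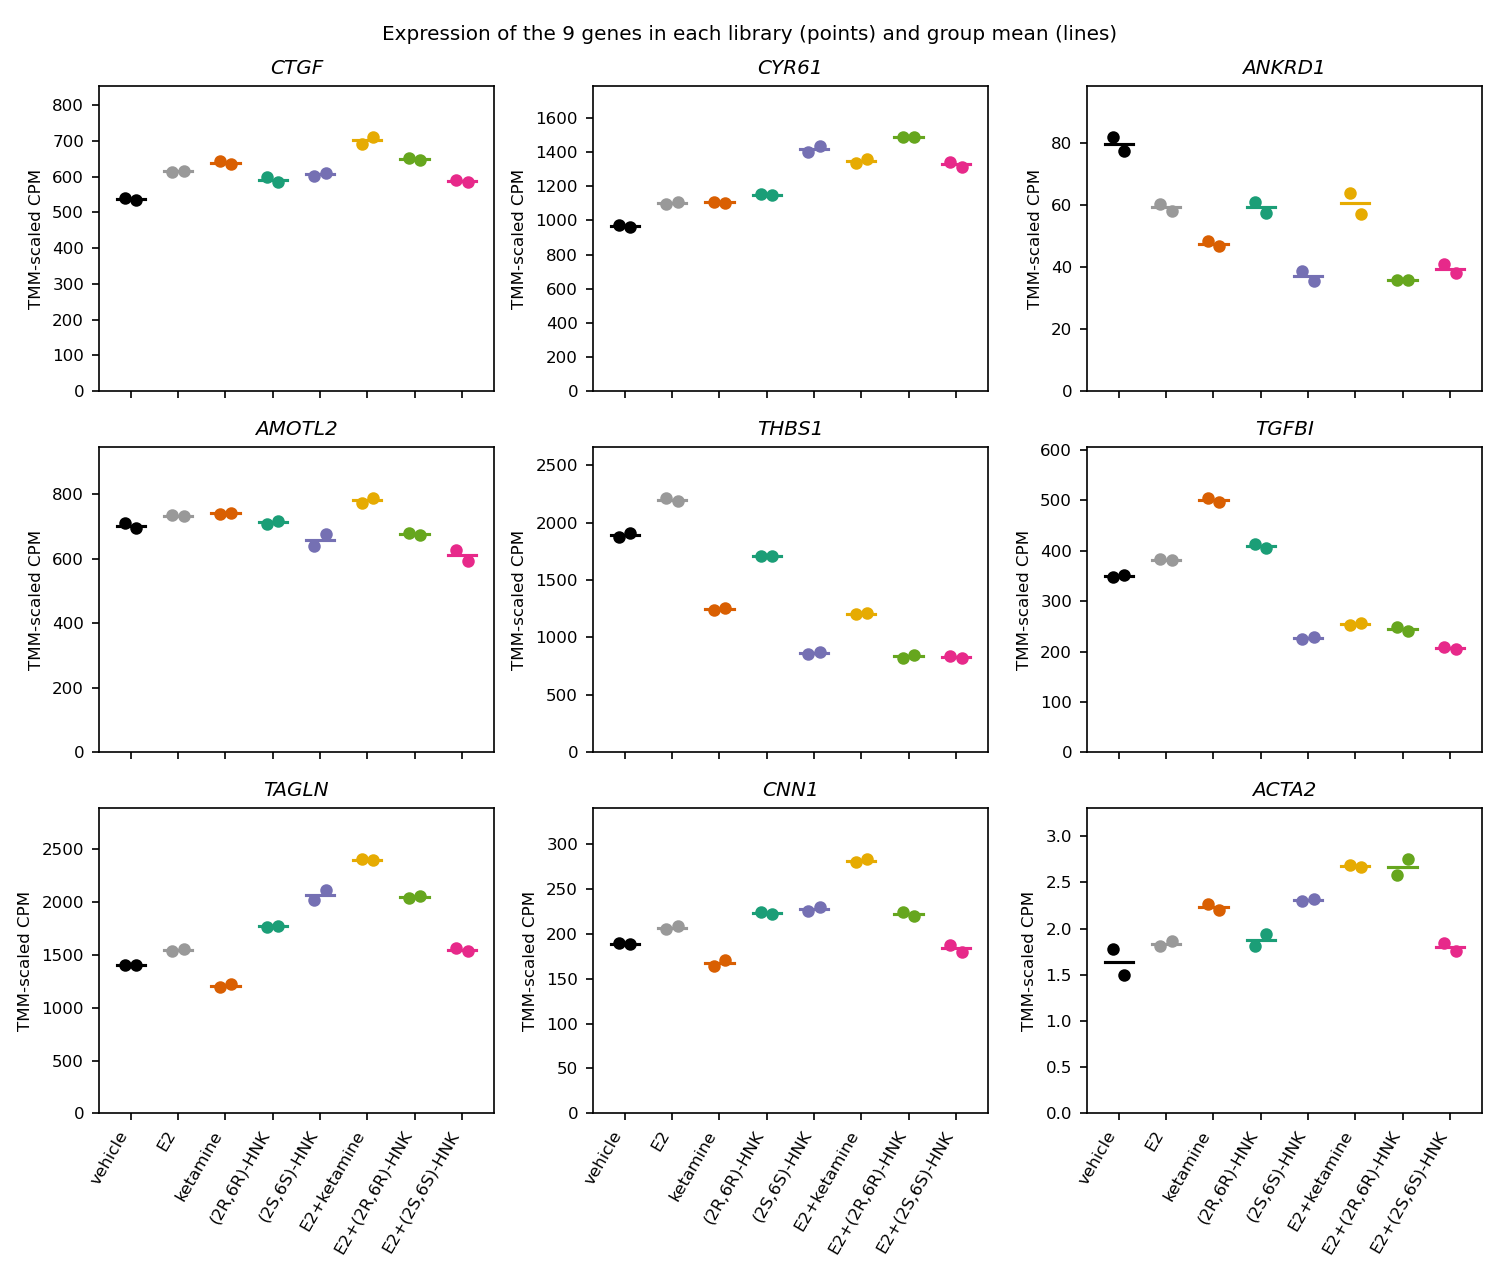
TMM-scaled CPM (vertical axis, from 0, a scale of its own for each gene) of the 9 genes in the 16 libraries, with the 2 libraries of a condition as points and their mean as a line. Replicates of the more abundant genes lie close together and those of ACTA2 in vehicle lie furthest apart (1.78 and 1.49 CPM), THBS1 runs from 820.8 to 2213.8 CPM, and ACTA2 reaches 2.75 CPM at most.

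Each treatment was next compared with the same 2 vehicle libraries in edgeR (quasi-likelihood F-test). Adjusted p-values are those of Benjamini and Hochberg over the 16004 genes, and a gene was called at an adjusted p under 0.05 in either direction. E2 alone moved 8 of the 9 genes (7 higher, 1 lower), against 62.5% of all genes tested (29.9% higher, 32.7% lower). Ketamine moved all 9 (5 higher, 4 lower), where 59.3% of all genes were called (26.8% higher, 32.5% lower). (2R,6R)-HNK moved 7 (5 higher, 2 lower), with 66.6% of all genes called (31.7% higher, 34.9% lower). (2S,6S)-HNK moved 9 (5 higher, 4 lower), with 67.9% called (32.1% higher, 35.8% lower). Against the same vehicle libraries, E2+ketamine moved 9 genes (6 higher, 3 lower), with 71.7% of all genes called (34.3% higher, 37.4% lower). E2+(2R,6R)-HNK moved 9 (5 higher, 4 lower), beside 69.7% of all genes (33.4% higher, 36.3% lower), while E2+(2S,6S)-HNK moved 7 (3 higher, 4 lower), beside 59.7% (24% higher, 35.7% lower). Calls were thus common among all genes, and the members' counts are to be read against these shares. The 9 genes did not move as one block: each treatment left some of them higher and others lower than vehicle.

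Most of these changes were small. The median absolute log2 fold change of the members was 0.17 with E2 (0.36 over all genes), 0.25 with ketamine (0.31), 0.55 with (2S,6S)-HNK (0.45) and 0.23 with its enantiomer (0.44). For the drugs given with E2 it was 0.48 with ketamine (0.58 over all genes), 0.20 with (2S,6S)-HNK (0.31) and 0.55 with its enantiomer (0.48). Only ANKRD1 and THBS1 also passed a log2 fold change limit of 1 against vehicle, and they did so with (2S,6S)-HNK (9.08% of all genes), with E2+(2S,6S)-HNK (5.85%) and with E2+(2R,6R)-HNK (11.5%). For E2, ketamine, (2R,6R)-HNK and E2+ketamine no member reached that limit, and 1.81%, 3.56%, 3.75% and 11% of all genes did.

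**Figure D2:**
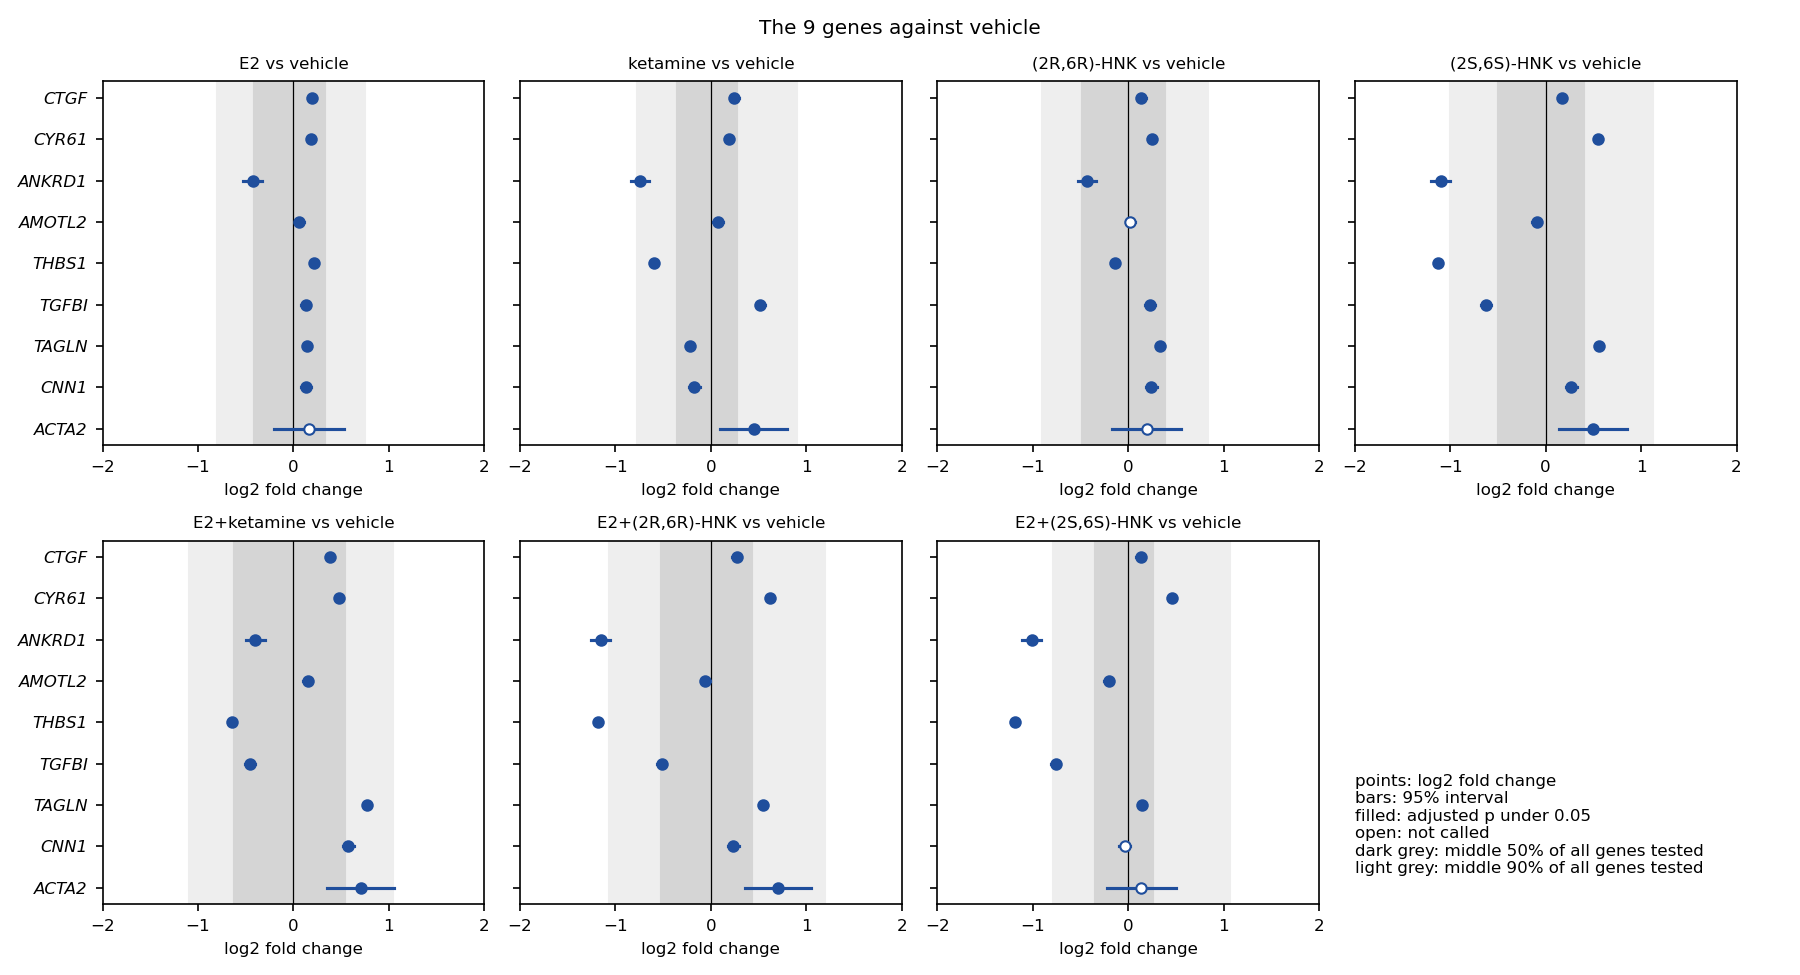
Log2 fold change against vehicle (horizontal axis) of the 9 genes in the 7 treatments, with 95% intervals from edgeR as bars. Filled points have an adjusted p under 0.05, open points do not, and grey bands hold the middle 50% and 90% of all genes tested. ANKRD1 and THBS1 lie outside the 90% band on the lower side with (2S,6S)-HNK and, in the presence of E2, with either metabolite.

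The GC content of a gene moved with these fold changes. Across the genes with a known GC content (96% of those tested), the Spearman correlation between GC content and the log2 fold change against vehicle was 0.444 to 0.771 in the 7 treatments, a description across genes, which are not independent replicates. The members lay on both sides of the median GC content of 48.7%: ANKRD1 (42.1%), ACTA2 (45%), THBS1 (45.7%) and CYR61 (48.5%) below it, and TGFBI (50.4%), CTGF (51.4%), TAGLN (56.5%), AMOTL2 (57%) and CNN1 (58.8%) above it. Each fold change was therefore also computed after a per-library correction for GC content and exon length. This correction removes any change that follows GC content or exon length, whatever its source. The corrected fits called 7 members with E2 (39.1% of all genes), 9 with ketamine (49.8%), 9 with (2S,6S)-HNK (58.1%) and 6 with (2R,6R)-HNK (46.7%). For the drugs given with E2 they called 8 with ketamine (53.7%), 8 with (2S,6S)-HNK (57.6%) and 9 with (2R,6R)-HNK (60.7%). After it, ANKRD1 no longer passed the log2 limit of 1 in any of its 3 treatments (-0.65 to -0.77), nor THBS1 with (2S,6S)-HNK (-0.94), while ACTA2 passed it with E2+ketamine (1.05).

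Among the secreted matricellular proteins, CYR61 (now CCN1, chr1:86046444-86050272, plus strand) rose with each treatment. It stood at 974 and 961 CPM in vehicle, 1097.2 and 1108.7 with E2, 1109.8 and 1101 with ketamine, 1152.8 and 1146.7 with (2R,6R)-HNK, and 1402.8 and 1436.4 with (2S,6S)-HNK. With E2, it reached 1338.7 and 1361.3 for ketamine, 1486.6 and 1490 for (2R,6R)-HNK, and 1343.2 and 1313.9 for (2S,6S)-HNK. The vehicle libraries were the lowest of all, and the treated ones formed a lower set (E2, ketamine, (2R,6R)-HNK) and a higher set that did not overlap with it. The log2 fold change ran from 0.19 (SE 0.0195) for E2, edgeR adjusted p = 4.31e-12, to 0.62 (SE 0.0195) for E2+(2R,6R)-HNK, adjusted p = 8.7e-32. After the GC and length correction all 7 calls stayed higher, with log2 fold changes from 0.19 to 0.63. CYR61 and TGFBI were the members whose 7 directions and calls were all kept under that correction.

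CTGF (now CCN2, chr6:132269316-132272512, minus strand), the other CCN family member and a textbook target of both YAP and TGF-beta, also rose with each treatment. Its rise was smaller than that of CYR61 with each metabolite alone and with each drug given with E2. CTGF rose about as much with E2 alone (log2 0.193 against 0.189) and more with ketamine alone (0.25 against 0.19). Its levels were 540 and 535 CPM in vehicle, 612 and 617 with E2, 643 and 634 with ketamine, 599.5 and 584 with (2R,6R)-HNK, and 603 and 609.5 with (2S,6S)-HNK. Ketamine with E2 gave 691.5 and 711 CPM, (2R,6R)-HNK with E2 gave 651 and 646, and (2S,6S)-HNK with E2 gave 591 and 585. Both vehicle libraries lay below all 14 treated ones, and E2+ketamine lay above all others. The gain was 1.09-fold with E2+(2S,6S)-HNK (log2 0.13, SE 0.0218, edgeR adjusted p = 1.01e-06) and 1.31-fold with E2+ketamine (log2 0.38, SE 0.0218, adjusted p = 1.33e-21). With the GC and length correction, 6 of the 7 rises were still called, and the value for (2R,6R)-HNK fell to -0.01 (edgeR adjusted p = 0.71).

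ANKRD1 (chr10:92671853-92680844, minus strand) encodes an ankyrin repeat protein induced in stressed muscle and is among the most used YAP reporters. It was the only member lower than vehicle in all 7 treatments. Vehicle libraries held 82 and 77.5 CPM, E2 60.3 and 58.2, ketamine 48.4 and 46.8, (2R,6R)-HNK 60.9 and 57.5, and (2S,6S)-HNK 38.8 and 35.6. With E2, it was at 63.9 and 57.2 CPM for ketamine, 35.9 and 35.8 for (2R,6R)-HNK, and 41 and 38 for (2S,6S)-HNK. No treated library reached the vehicle range, and the lowest group was formed by (2S,6S)-HNK and by the combinations of either metabolite with E2, both of which overlapped (2S,6S)-HNK. ANKRD1 was 2.15-fold lower with (2S,6S)-HNK (log2 -1.10, SE 0.0494, edgeR adjusted p = 2.51e-25) and 2.23-fold lower with E2+(2R,6R)-HNK (log2 -1.15, SE 0.0484, adjusted p = 1.26e-26). The fall was shallower with E2 and with (2R,6R)-HNK alone, at -0.43 for both. Under the GC and length correction the falls with ketamine (-0.43), (2S,6S)-HNK (-0.65), E2+(2S,6S)-HNK (-0.77) and E2+(2R,6R)-HNK (-0.68) were still called. Those with E2 (-0.03) and (2R,6R)-HNK (-0.01) were not, and the value for E2+ketamine turned from -0.40 to 0.14 (edgeR adjusted p = 0.00416).

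AMOTL2 (chr3:134074189-134094321, minus strand), an angiomotin family protein that binds YAP and is itself a YAP target, hardly moved. It was at 711 and 694 CPM in vehicle, 733.5 and 731 with E2, 738 and 741.5 with ketamine, 708 and 716 with (2R,6R)-HNK, and 639.9 and 676 with (2S,6S)-HNK. E2+ketamine gave 772 and 787 CPM, E2+(2R,6R)-HNK 678 and 672, and E2+(2S,6S)-HNK 625 and 594. E2+ketamine was highest and E2+(2S,6S)-HNK lowest, while vehicle and (2R,6R)-HNK overlapped. The log2 fold changes lay between -0.20 (E2+(2S,6S)-HNK, edgeR adjusted p = 1.51e-10) and 0.15 (E2+ketamine, adjusted p = 1.24e-07), with 3 rises, 3 falls and no call for (2R,6R)-HNK (0.02, 95% interval -0.03 to 0.07), which DESeq2 called higher (0.06, adjusted p = 0.0309). The direction depended on the processing: all 7 treatments were lower than vehicle after the GC and length correction, by log2 values of -0.22 to -0.50, and upper-quartile scaling turned E2+(2R,6R)-HNK from -0.06 to 0.025 (not called). DESeq2 did not call E2+(2R,6R)-HNK (-0.03, adjusted p = 0.332), and with (2S,6S)-HNK upper-quartile scaling gave -0.02 (adjusted p = 0.503). Several calls also rested on 1 library. The rise with E2 was lost without either E2 library (edgeR adjusted p = 0.0977 and 0.0782) or without vehicle replicate 2 (0.225), and the rise with ketamine without vehicle replicate 2 (0.0936). The fall with E2+(2R,6R)-HNK was lost without either of its libraries (0.0607 and 0.138) or vehicle replicate 1 (0.241).

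THBS1 (chr15:39873280-39891667, plus strand) encodes thrombospondin-1, a matrix glycoprotein that can activate latent TGF-beta, and it showed the widest range of the members, with a 2.65-fold span between the highest and the lowest condition mean. Its levels were 1871.9 and 1905.3 CPM in vehicle, 2213.8 and 2184.8 with E2, 1240.1 and 1253.8 with ketamine, 1710.1 and 1711.2 with (2R,6R)-HNK, and 854 and 873 with (2S,6S)-HNK. In the presence of E2, the cells held 1203.3 and 1210 CPM with ketamine, 824 and 844 with (2R,6R)-HNK, and 836 and 821 with (2S,6S)-HNK. E2 alone was thus above vehicle and all drug conditions were below it, in 3 steps, with the combinations of E2 and either metabolite overlapping at the bottom. THBS1 was 2.19-fold lower with (2S,6S)-HNK (log2 -1.13, SE 0.0197, edgeR adjusted p = 6.85e-42), 2.26-fold lower with E2+(2R,6R)-HNK and 2.28-fold lower with E2+(2S,6S)-HNK. As compared to vehicle it was 1.52-fold lower with ketamine and 1.57-fold lower with E2+ketamine. E2 raised it by 0.22 on the log2 scale (SE 0.0193, edgeR adjusted p = 2.63e-14). Of the 7 directions, 6 were kept under the GC and length correction, while the small fall with (2R,6R)-HNK (-0.14) turned to a rise of 0.10 (edgeR adjusted p = 4.86e-08).

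TGFBI (chr5:135364677-135399507, plus strand), a secreted matrix protein named for its induction by TGF-beta, divided the treatments. Vehicle libraries held 348 and 352 CPM, E2 383 and 381, ketamine 505 and 497, (2R,6R)-HNK 414 and 406, and (2S,6S)-HNK 225 and 228. Each drug with E2 lay below vehicle, at 252 and 257.5 CPM for ketamine, 249 and 240.5 for (2R,6R)-HNK, and 208 and 205 for (2S,6S)-HNK. No neighbouring pair of conditions overlapped in the order of the levels. TGFBI was 1.43-fold higher with ketamine (log2 0.52, SE 0.0243, edgeR adjusted p = 4.45e-24) and 1.54-fold lower with (2S,6S)-HNK (log2 -0.63, SE 0.0251, adjusted p = 2.87e-27). Against vehicle it was also 1.37-fold lower with E2+ketamine, 1.43-fold lower with E2+(2R,6R)-HNK and 1.69-fold lower with E2+(2S,6S)-HNK. All 7 calls and directions were kept under the GC and length correction, with values from -0.80 to 0.41.

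Of the contractile genes, TAGLN (chr11:117070086-117078180, plus strand) encodes transgelin, an actin-binding protein of smooth muscle. Libraries held 1403.3 and 1403 CPM in vehicle, 1537.7 and 1558.1 with E2, 1194 and 1221.6 with ketamine, 1762.4 and 1772.9 with (2R,6R)-HNK, and 2017.6 and 2112.1 with (2S,6S)-HNK. Those given E2 held 2403.8 and 2395.6 CPM with ketamine, 2036.3 and 2059.3 with (2R,6R)-HNK, and 1564.4 and 1532.5 with (2S,6S)-HNK. Ketamine alone was the one condition below vehicle, and ketamine with E2 was the highest of all. The log2 fold change was -0.22 (SE 0.0195, edgeR adjusted p = 7.92e-14) for ketamine and 0.77 (SE 0.0196, adjusted p = 1.26e-35) for E2+ketamine. (2S,6S)-HNK gave 0.56 and E2+(2R,6R)-HNK 0.55, while E2 and E2+(2S,6S)-HNK gave 0.14 each. Corrected for GC content and length, (2S,6S)-HNK (0.18), E2+ketamine (0.31) and E2+(2R,6R)-HNK (0.12) were still higher and ketamine (-0.50) still lower. E2 (-0.16) and E2+(2S,6S)-HNK (-0.06) turned lower, and (2R,6R)-HNK went from 0.33 to -0.01 and lost its call.

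Overlaps of exons were taken from GENCODE models, whereas the authors counted on UCSC gene models, whose overlaps were not examined. In the GENCODE models, TAGLN shares 2233 exonic bases with PCSK7, a proprotein convertase gene on the opposite strand. Whether reads were counted by strand is not given in the sources used here, and without strand the reads of the shared stretch cannot be told apart. PCSK7 had 8.14% to 11% of the count of TAGLN in each library, with a Pearson correlation of log2 CPM of 0.883 across the 16 libraries. ACTA2 shares 380 exonic bases with FAS and 1638 with ACTA2-AS1, and the count of FAS was 18.8% to 58.4% of that of ACTA2 (r = 0.0997), so the counts of ACTA2 are uncertain. Overlaps of THBS1 with FSIP1 (448 bases) and of CTGF with LINC01013 (278 bases) involved genes with at most 0.0493% and 0.035% of the member's count.

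CNN1 (chr19:11649582-11661138, plus strand) encodes calponin 1, an actin-binding inhibitor of the myosin motor, and followed TAGLN at a lower level. Vehicle libraries were at 189 and 188 CPM, E2 at 205 and 209, ketamine at 163.9 and 171, (2R,6R)-HNK at 224 and 222, and (2S,6S)-HNK at 225 and 230. With E2, levels were 279 and 283 CPM for ketamine, 224 and 219.6 for (2R,6R)-HNK, and 187.5 and 179.7 for (2S,6S)-HNK. As for TAGLN, ketamine alone was lowest and E2+ketamine highest, and (2R,6R)-HNK overlapped E2+(2R,6R)-HNK. The log2 fold changes against vehicle were -0.17 for ketamine (SE 0.028, edgeR adjusted p = 5.26e-07), 0.58 for E2+ketamine (SE 0.0278, adjusted p = 2.42e-24) and 0.13 to 0.27 for E2, (2R,6R)-HNK, (2S,6S)-HNK and E2+(2R,6R)-HNK. E2+(2S,6S)-HNK was not called (-0.04, 95% interval -0.09 to 0.02), and upper-quartile scaling turned that value to 0.066 (adjusted p = 0.0389), whereas the GC and length correction called it lower (-0.26, adjusted p = 3.37e-16). None of the 5 rises was kept under the GC and length correction: 4 turned lower, from -0.14 to -0.21, E2+ketamine went to -0.004, and ketamine alone fell to -0.46.

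ACTA2 (chr10:90694831-90751096, minus strand), which encodes smooth muscle alpha actin, the classic marker of myofibroblasts, was measured on few counts. It held 1.78 and 1.49 CPM in vehicle, 1.81 and 1.86 with E2, 2.27 and 2.21 with ketamine, 1.81 and 1.94 with (2R,6R)-HNK, and 2.30 and 2.32 with (2S,6S)-HNK. E2+ketamine gave 2.69 and 2.66 CPM, E2+(2R,6R)-HNK 2.58 and 2.75, and E2+(2S,6S)-HNK 1.84 and 1.76. Vehicle, E2, E2+(2S,6S)-HNK and (2R,6R)-HNK lay together near the bottom, and the other 4 conditions lay above them without overlap. ACTA2 was 1.63-fold higher with E2+ketamine (log2 0.71, SE 0.176, edgeR adjusted p = 0.00036) and 1.62-fold higher with E2+(2R,6R)-HNK (log2 0.70, SE 0.172, adjusted p = 0.000337). The rises with ketamine (0.45, edgeR adjusted p = 0.023) and (2S,6S)-HNK (0.50, adjusted p = 0.013) were lost without vehicle replicate 2 (0.33, adjusted p = 0.205, and 0.37, adjusted p = 0.136), and the former also without either ketamine library (adjusted p = 0.0843 and 0.0565). At this depth, E2 (95% interval -0.20 to 0.53), (2R,6R)-HNK (-0.17 to 0.56) and E2+(2S,6S)-HNK (-0.23 to 0.50) could not be distinguished from vehicle. The corrected values ranged from 0.25 to 1.05 and 5 treatments were called higher.

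**Figure D3:**
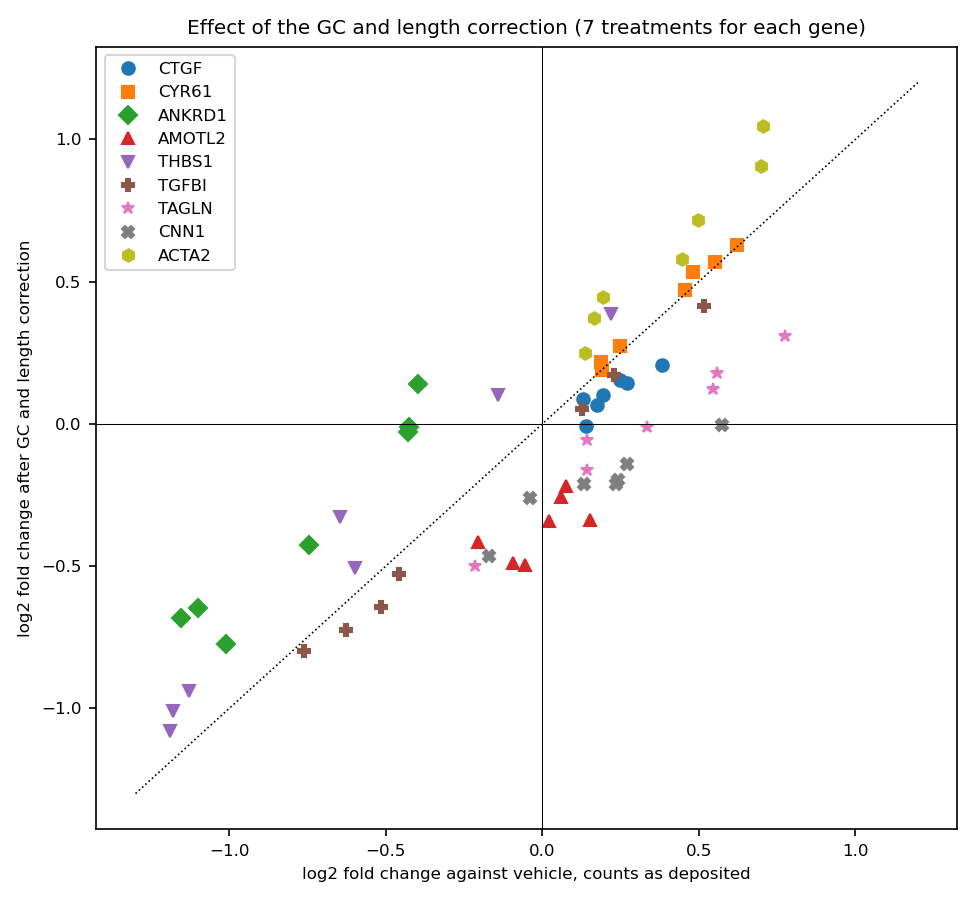
Log2 fold change against vehicle from the counts as deposited (horizontal axis) and after the GC and length correction (vertical axis) for the 9 genes, each with 7 treatments as points of one shape. The dotted line marks equal values: CYR61 lies on it, AMOTL2, TAGLN and CNN1 lie below it, and ANKRD1 and ACTA2 lie above it.

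The 3 drugs were compared with each other at the same dose (400 nM) and time (24 h), in 3 pairs without E2 and 3 pairs with it, and p-values were adjusted within each pair over all genes tested. Between the enantiomers THBS1, TGFBI and ANKRD1 differed most. THBS1 was 1.98-fold higher with (2R,6R)-HNK (1710.1 and 1711.2 CPM against 854 and 873; log2 0.99, SE 0.0196, edgeR adjusted p = 5.14e-39) and TGFBI was 1.81-fold higher (log2 0.86, SE 0.025, adjusted p = 7.31e-32). ANKRD1 was 1.59-fold higher (log2 0.67, SE 0.05, edgeR adjusted p = 4.25e-16) and AMOTL2 1.08-fold higher, while CYR61 (log2 -0.30) and TAGLN (-0.22) were lower with (2R,6R)-HNK. In all, 6 of 9 genes were called (4 higher, 2 lower), against 43.5% of all genes tested (21% higher, 22.4% lower), and no member but 2.53% of all genes also passed a log2 difference of 1. No difference was called for CTGF (-0.03, 95% interval -0.08 to 0.01), CNN1 (-0.03, -0.09 to 0.03) or ACTA2 (-0.30, -0.65 to 0.05), and the interval of ACTA2 leaves room for a sizeable difference. After the GC and length correction, all 6 called differences kept their direction and call, with THBS1 at 1.04 and TGFBI at 0.90, and CTGF (-0.07) and CNN1 (-0.06) were called as well (46.1% of all genes).

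The enantiomers were also compared in the presence of E2. THBS1 was not called (log2 0.01, 95% interval -0.03 to 0.05) and TGFBI was 1.19-fold higher with E2+(2R,6R)-HNK than with E2+(2S,6S)-HNK (log2 0.25, edgeR adjusted p = 6.71e-12). TAGLN was 1.32-fold higher (log2 0.40, SE 0.0194, edgeR adjusted p = 1.6e-22), CNN1 1.21-fold higher (0.27, SE 0.0276, adjusted p = 5.06e-12) and ACTA2 1.48-fold higher (0.56, SE 0.166, adjusted p = 0.0033). CYR61 (0.16), AMOTL2 (0.15) and CTGF (0.14) were slightly higher, and ANKRD1 was lower (-0.14, edgeR adjusted p = 0.0132). That call of ANKRD1 was lost without either E2+(2R,6R)-HNK library (adjusted p = 0.0549 and 0.0573) or without E2+(2S,6S)-HNK replicate 1 (-0.09, adjusted p = 0.253). In all, 8 of 9 genes were called, 7 higher and 1 lower (54% of all genes, 29.1% higher and 25% lower), with no member and 0.662% of all genes past a log2 difference of 1. The GC and length correction left TAGLN at 0.18 and ACTA2 at 0.66, removed the call of CNN1 (0.05), gave THBS1 a small called difference (0.07), and turned AMOTL2 (-0.08) and ANKRD1 (0.09, no longer called).

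Between ketamine and (2R,6R)-HNK the largest differences were those of TAGLN, THBS1 and CNN1. Against (2R,6R)-HNK, 8 of 9 genes were called, 3 higher and 5 lower (45.4% of all genes, 22.8% higher and 22.6% lower). TAGLN was 1.46-fold lower with ketamine (log2 -0.55, SE 0.0195, edgeR adjusted p = 9.83e-28), THBS1 1.37-fold lower (-0.46), CNN1 1.33-fold lower (-0.41) and ANKRD1 1.25-fold lower (-0.32). TGFBI was 1.22-fold higher (0.29) and CTGF 1.08-fold higher (0.11). The differences of CYR61 (-0.06, edgeR adjusted p = 0.0133) and AMOTL2 (0.06, adjusted p = 0.0497) were small and close to the limit for a call. CYR61 lost its call without (2R,6R)-HNK replicate 1 (-0.05, adjusted p = 0.0896) or ketamine replicate 2 (-0.05, adjusted p = 0.104), and AMOTL2 lost its call without any 1 of the 4 libraries (adjusted p = 0.0889 to 0.226) and in DESeq2 (adjusted p = 0.126). ACTA2 was not called (0.26, 95% interval -0.08 to 0.59). No member and 0.844% of all genes passed a log2 difference of 1.

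Against (2S,6S)-HNK, 8 of 9 genes were called as well, 5 higher and 3 lower (46.1% of all genes, 22% higher and 24.2% lower). TGFBI was 2.21-fold higher with ketamine (505 and 497 CPM against 225 and 228; log2 1.14, SE 0.0249, edgeR adjusted p = 7.03e-37), the only member past a log2 difference of 1, which 1.77% of all genes passed. THBS1 (0.53), ANKRD1 (0.36) and AMOTL2 (0.17) were higher and TAGLN (-0.77), CNN1 (-0.44) and CYR61 (-0.36) lower with ketamine. CTGF was higher by 0.07 (edgeR adjusted p = 0.00363), a call lost without ketamine replicate 1 (0.07, adjusted p = 0.0512), and ACTA2 was not called (-0.05, 95% interval -0.38 to 0.29). In both ketamine pairs the 8 called members kept their direction and call under the GC and length correction (40.2% and 42.6% of all genes called).

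With E2 present, ketamine gave higher levels than either metabolite for most of the genes. Against E2+(2S,6S)-HNK, 8 of 9 were higher and none lower, while 66.8% of all genes were called in either direction 31.7% being higher and 35% lower. TAGLN (1.55-fold, log2 0.63), ANKRD1 (1.53-fold, 0.61), CNN1 (1.53-fold, 0.61) and ACTA2 (1.48-fold, 0.57) differed most, and CYR61 was not called (0.02, 95% interval -0.02 to 0.06) but was in DESeq2 (0.06, adjusted p = 0.00184) and under the GC and length correction (0.06). Against E2+(2R,6R)-HNK, 7 of 9 were called, 6 higher and 1 lower (52% of all genes, 25.3% higher and 26.7% lower). ANKRD1 was 1.69-fold higher (log2 0.76, SE 0.0493, edgeR adjusted p = 1.64e-18), THBS1 1.45-fold higher (0.53) and CNN1 1.27-fold higher (0.34), whereas CYR61 was 1.10-fold lower (-0.14). ACTA2 was not called (0.01, 95% interval -0.32 to 0.33), nor was TGFBI (0.06, edgeR adjusted p = 0.0508), which was called without replicate 1 of E2+ketamine (0.07, adjusted p = 0.0419) or of E2+(2R,6R)-HNK (0.08, adjusted p = 0.0282). DESeq2 (0.08, adjusted p = 0.00135) and the GC and length correction (0.12, edgeR adjusted p = 2.63e-06) called TGFBI as well, as did the fit on the groups compared alone (0.07, adjusted p = 0.0211). No member passed a log2 difference of 1 in either pair, and 5.62% and 3.09% of all genes did. All directions of called members were kept under the GC and length correction in both pairs.

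**Figure D4:**
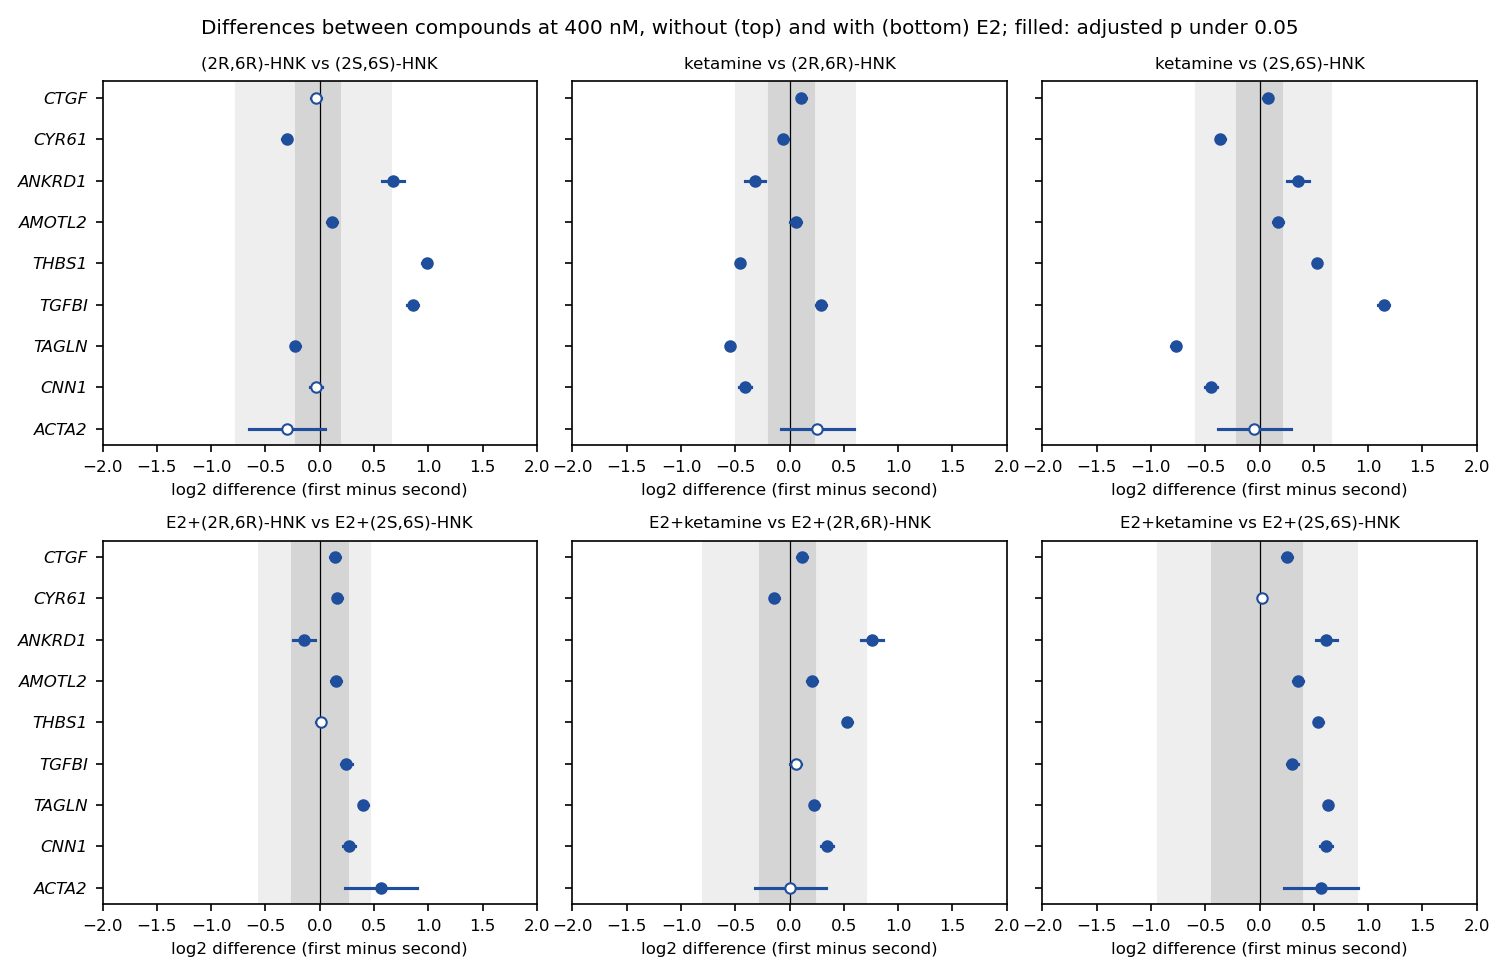
Log2 difference between drugs at 400 nM (horizontal axis, first named minus second) for the 9 genes, without E2 in the top row and with E2 in the bottom row. Bars are 95% intervals from edgeR, filled points have an adjusted p under 0.05, and grey bands hold the middle 50% and 90% of all genes. TGFBI against (2S,6S)-HNK reaches 1.14 for ketamine, and the difference of THBS1 between the enantiomers is 0.99 without E2 and 0.01 with it.

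Adding a drug to E2 was compared with E2 alone. E2+ketamine moved 8 of 9 members (50.3% of all genes), E2+(2R,6R)-HNK moved 9 (50.5%) and E2+(2S,6S)-HNK moved 7 (55.1%). THBS1 fell furthest: it was 1.82-fold lower with ketamine (log2 -0.87, SE 0.0195, edgeR adjusted p = 3.13e-36), 2.64-fold lower with (2R,6R)-HNK (-1.40, SE 0.0197, adjusted p = 9.54e-46) and 2.65-fold lower with (2S,6S)-HNK (-1.41, SE 0.0197, adjusted p = 7.05e-46). These last 2 were the only values of a member past a log2 change of 1, which 3.57% and 3.67% of all genes passed, as did 1.12% with ketamine. TGFBI was lower in all 3, by log2 values of -0.59, -0.64 and -0.89, and CYR61 was higher in all 3 (0.29, 0.43 and 0.27). ANKRD1 was lower with both metabolites (-0.73 and -0.58) and not called with ketamine (0.03, 95% interval -0.07 to 0.13).

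The contractile genes rose over E2 alone with ketamine and (2R,6R)-HNK but not with (2S,6S)-HNK. TAGLN was 1.55-fold higher with ketamine (log2 0.63, edgeR adjusted p = 9.72e-31) and 1.32-fold higher with (2R,6R)-HNK (0.40, adjusted p = 2.67e-23), and with (2S,6S)-HNK its difference was 0.00 (95% interval -0.04 to 0.04). CNN1 was 1.36-fold higher, 1.07-fold higher and 1.12-fold lower (log2 0.44, 0.10 and -0.17) with the 3 drugs in the same order. ACTA2 was higher with ketamine (0.54, edgeR adjusted p = 0.00743) and (2R,6R)-HNK (0.53, adjusted p = 0.00705; without E2+(2R,6R)-HNK replicate 2, 0.49, adjusted p = 0.0513) and was not called with (2S,6S)-HNK (-0.03, 95% interval -0.38 to 0.33). CTGF was higher with ketamine (0.19) and (2R,6R)-HNK (0.08) and lower with (2S,6S)-HNK (-0.06, edgeR adjusted p = 0.0116), a call lost without E2 replicate 2 (-0.06, adjusted p = 0.105) or E2+(2S,6S)-HNK replicate 2 (-0.06, adjusted p = 0.0819) and under upper-quartile scaling (-0.02, adjusted p = 0.413). AMOTL2 differed by 0.09, -0.12 and -0.26. Under the GC and length correction AMOTL2 with ketamine turned lower (-0.08), CNN1 lost its calls with (2R,6R)-HNK (0.00) and (2S,6S)-HNK (-0.05), CTGF lost its call with (2S,6S)-HNK (-0.02), and ANKRD1 with ketamine (0.17) and TAGLN with (2S,6S)-HNK (0.11) became called.

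Whether a drug acted differently in the presence of E2 was tested as the effect of the drug with E2 minus its effect without it. By this test ketamine had 6 of 9 members called (37.5% of all genes), (2R,6R)-HNK 7 (56.6%) and (2S,6S)-HNK 8 (65.1%). With ketamine the members that turned were TGFBI, which rose without E2 and fell with it (log2 difference -1.10, SE 0.0348, edgeR adjusted p = 1.85e-29), and TAGLN (0.85, SE 0.0276, adjusted p = 3.6e-29) and CNN1 (0.62, SE 0.0394, adjusted p = 5.94e-18), which did the opposite. ANKRD1 fell with ketamine alone and was not called when ketamine was added to E2, a difference of 0.78 (SE 0.067, edgeR adjusted p = 1.42e-13). With (2R,6R)-HNK, THBS1 (-1.26, SE 0.0274, edgeR adjusted p = 4.07e-37) and TGFBI (-0.87, SE 0.0348, adjusted p = 1.38e-26) led. The fall of THBS1 was small without E2 and large with it.

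For (2S,6S)-HNK the differences were negative for 7 members and positive for ANKRD1 alone (32.2% and 32.9% of all genes). TAGLN (-0.56, SE 0.0276, edgeR adjusted p = 2.41e-23) and CNN1 (-0.44, SE 0.0396, adjusted p = 3.98e-14) had risen with the metabolite alone and did not rise when it was added to E2. A log2 difference of 1 was passed by TGFBI for ketamine and by THBS1 for (2R,6R)-HNK, beside 1.82% and 5.68% of all genes, and by no member for (2S,6S)-HNK, beside 10.7% of all genes. CTGF was not called for ketamine (-0.06, 95% interval -0.12 to 0.00) or (2R,6R)-HNK (-0.06, -0.12 to 0.00), but DESeq2 called both (-0.07, adjusted p = 0.0458, and -0.10, adjusted p = 0.00041), and so did upper-quartile scaling (-0.14 and -0.12). Nor was ACTA2 called for any drug, with the interval for (2S,6S)-HNK at -1.03 to -0.02 (edgeR adjusted p = 0.0643, and -0.66 with adjusted p = 0.0434 without vehicle replicate 1). Under the GC and length correction that difference of ACTA2 was -0.84 and called (edgeR adjusted p = 0.00599), as it was with DESeq2 size factors (-0.57, adjusted p = 0.0446) and upper-quartile scaling (-0.56, adjusted p = 0.0499). The difference of CYR61 for ketamine (0.10) fell to 0.01 under upper-quartile scaling (adjusted p = 0.745). The GC and length correction kept the direction and call of the 6 called differences for ketamine and called AMOTL2 as well (from 0.02 to 0.14, edgeR adjusted p = 2.76e-06), with values of -0.995 for TGFBI, 0.97 for TAGLN, 0.67 for CNN1 and 0.59 for ANKRD1. For (2S,6S)-HNK those of ANKRD1 (-0.10), AMOTL2 (0.33) and CNN1 (0.09) turned, and TAGLN shrank to -0.07. For (2R,6R)-HNK those of AMOTL2 (0.10) and CNN1 (0.20) turned, while THBS1 (-1.50) and TGFBI (-0.87) kept theirs.

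The wider pathways were described from lists that exclude the 9 members. Some genes stand in more than 1 list. Of 18 genes of a YAP/TAZ target signature 17 were tested, of which 10 to 12 were lower than vehicle and 2 to 4 higher in each of the 7 treatments, and the list median lay between -0.12 and -0.52, against -0.064 to -0.003 over all genes. The share of lower calls over all genes was 32.5% to 37.4%. After the GC and length correction 9 to 13 were lower and 2 to 5 higher, where 39.1% to 60.7% of all genes were called in either direction. Of its 4 most expressed genes, MYOF, a membrane repair protein, was lower in all 7 treatments (log2 -0.35 for E2, edgeR adjusted p = 1.11e-17, to -0.99 for E2+ketamine, adjusted p = 1.35e-35). CRIM1, a transmembrane binder of BMP ligands, was lower in 7 as well (-0.52 with (2R,6R)-HNK, -0.06 with E2+(2S,6S)-HNK, edgeR adjusted p = 2.7e-25 and 0.0226), and AXL, a receptor tyrosine kinase, was lower in 4 (-0.05 to -0.33). Under the correction AXL was lower in all 7 (-0.21 to -0.48) and CRIM1 in 6, not being called with E2+(2S,6S)-HNK (0.008). CCDC80, a matrix protein, was lower in 5 treatments (-0.05 to -0.36) and higher with E2+(2S,6S)-HNK (0.06, edgeR adjusted p = 0.0195). Under the GC and length correction CCDC80 was higher in all 7 (0.16 to 0.40). The rest of the signature thus ran mostly lower, as did ANKRD1, while CTGF and CYR61 ran higher.

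Among 20 Hippo pathway components, 11 to 15 were lower and 2 to 6 higher (32.5% to 37.4% of all genes were lower and 24% to 34.3% higher), with list medians of -0.12 to -0.38. TEAD1, a DNA-binding partner of YAP and the most expressed gene of the list, was lower in all 7 treatments (log2 -0.31 to -0.87, edgeR adjusted p from 2.74e-15 to 6.91e-33) and stayed lower under the GC and length correction (-0.12 to -0.35). YAP1 itself was lower in 5 treatments (-0.22 to -0.51) and higher with ketamine (0.11, edgeR adjusted p = 0.000708). Its direction depended on the processing, since the corrected values were higher in 5 treatments (0.07 to 0.32) and lower in 1. NF2, an upstream activator of the Hippo kinases, was lower in 5 treatments, PTPN14, a phosphatase that binds YAP, in 7, and VGLL3, a TEAD cofactor, in 6. Under the correction NF2 was lower in 7 and VGLL3 higher in 6. PTPN14 was then higher with E2 (0.09) and lower in the other 6 (-0.06 to -0.48). The GC and length correction left 7 to 12 of the Hippo list lower and 4 to 7 higher, with 39.1% to 60.7% of all genes called in either direction.

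Of 21 TGF-beta ligands, receptors, SMADs and their regulators, 8 to 12 were lower and 4 to 10 higher, and some of these counts lie close to the shares over all genes just given. Under the GC and length correction 6 to 14 were lower and 3 to 7 higher, with 39.1% to 60.7% of all genes called in either direction. SMURF2, a ubiquitin ligase that limits TGF-beta receptors, was lower in all 7 treatments, by log2 values of -0.80 (E2) to -1.27 (E2+(2R,6R)-HNK, edgeR adjusted p = 1.69e-32), and stayed so under the correction (-0.39 to -0.81). TGFB2, the most expressed ligand gene of the list, was lower in 6 treatments (-0.21 to -0.67) and not called with E2+(2S,6S)-HNK, but 3 of the 7 values were higher under the correction. SKI, a repressor of SMADs, was higher in 6 treatments and, under the correction, lower in 7, and SMAD3 was higher with E2 (0.11) and ketamine (0.29) and lower in 4 others. Under the correction SMAD3 was still higher with ketamine (0.105), not called with E2 (-0.07) and lower in the other treatments (-0.24 to -0.50). Of 19 further TGF-beta targets 18 were tested, of which 6 to 11 were higher and 4 to 7 lower, beside 24% to 34.3% and 32.5% to 37.4% of all genes. The correction left 3 to 8 of these targets higher and 4 to 8 lower, beside the same corrected share of all genes. FN1, fibronectin, was lower in 4 treatments and higher in 2, between -0.34 and 0.19, and was higher in 5 under the correction. COL1A1, a collagen I chain, was higher in 6 treatments and, under the correction, lower in 6, and COL4A1, a collagen IV chain, was lower in 3 and higher in 1, and under the correction lower in 3 and higher in 4.

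Of 30 SRF and MRTF factors and contractile genes, 17 or 18 were higher and 8 to 10 lower with E2, with each metabolite alone, with E2+ketamine and with E2+(2R,6R)-HNK, where 29.9% to 34.3% of all genes were higher and 32.7% to 37.4% lower. With ketamine, 9 were higher and 15 lower, and with E2+(2S,6S)-HNK, 8 and 13, beside 26.8% and 24% of all genes higher and 32.5% and 35.7% lower. These are the 2 treatments in which CNN1 was not higher than vehicle. ACTG1 and FLNA, the cytoplasmic gamma actin and filamin A genes, rose most with E2+ketamine (0.66 and 0.71, edgeR adjusted p = 2.32e-38 and 7.51e-35), and these values shrank to 0.10 and 0.05 under the correction, where ACTG1 was lower in 4 treatments and FLNA in 6. ACTB, beta actin, was higher in 5 treatments (up to 0.59) and lower with ketamine (-0.12), and MYH9, a non-muscle myosin chain, moved between -0.20 and 0.17, neither being higher in any treatment under the correction. Before the correction, SRF was 1.81-fold higher with E2+ketamine (log2 0.86, SE 0.0325, edgeR adjusted p = 1.38e-28). The correction left E2+ketamine with 15 higher and 12 lower, and for the other 6 treatments lower calls outnumbered higher ones, for ketamine by 22 to 2 (49.8% of all genes called in either direction). SRF under the correction was 0.21 for E2+ketamine and 0.07 for E2 (edgeR adjusted p = 0.0307), and was not called for (2R,6R)-HNK (-0.06). It was lower for ketamine, (2S,6S)-HNK and the other combinations with E2 (-0.07 to -0.35).

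Of 20 paralogs of the members 16 were tested, of which 6 to 8 were higher and 3 to 6 lower in each treatment. Over all genes 24% to 34.3% were higher and 32.5% to 37.4% lower, so the share of lower calls was near or below that of all genes. After the GC and length correction 3 to 7 of 15 paralogs were higher and 4 to 8 lower, with 39.1% to 60.7% of all genes called in either direction. CNN2 rose in all 7 treatments, by 0.97 with E2+ketamine (SE 0.0224, edgeR adjusted p = 4.96e-37) and 0.11 with E2+(2S,6S)-HNK, which under the correction turned to -0.13, as its rise with ketamine (0.28) went to -0.01 and lost its call, and CNN3 fell in all 7 (-0.34 to -0.65). TAGLN2 rose with E2, (2R,6R)-HNK and E2+ketamine (0.14, 0.18 and 0.29) and fell in the other 4 (-0.13 to -0.60), and under the correction it was lower in all 7. THBS2, the closest relative of THBS1 in the table, was lower in 5 treatments (-0.16 to -0.26) and higher with E2 (0.09) and ketamine (0.22). The values of CNN1 lay between those of CNN2 and CNN3 as deposited, but below both under the correction with ketamine (-0.46) and with E2+(2S,6S)-HNK (-0.26).

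**Figure D5:**
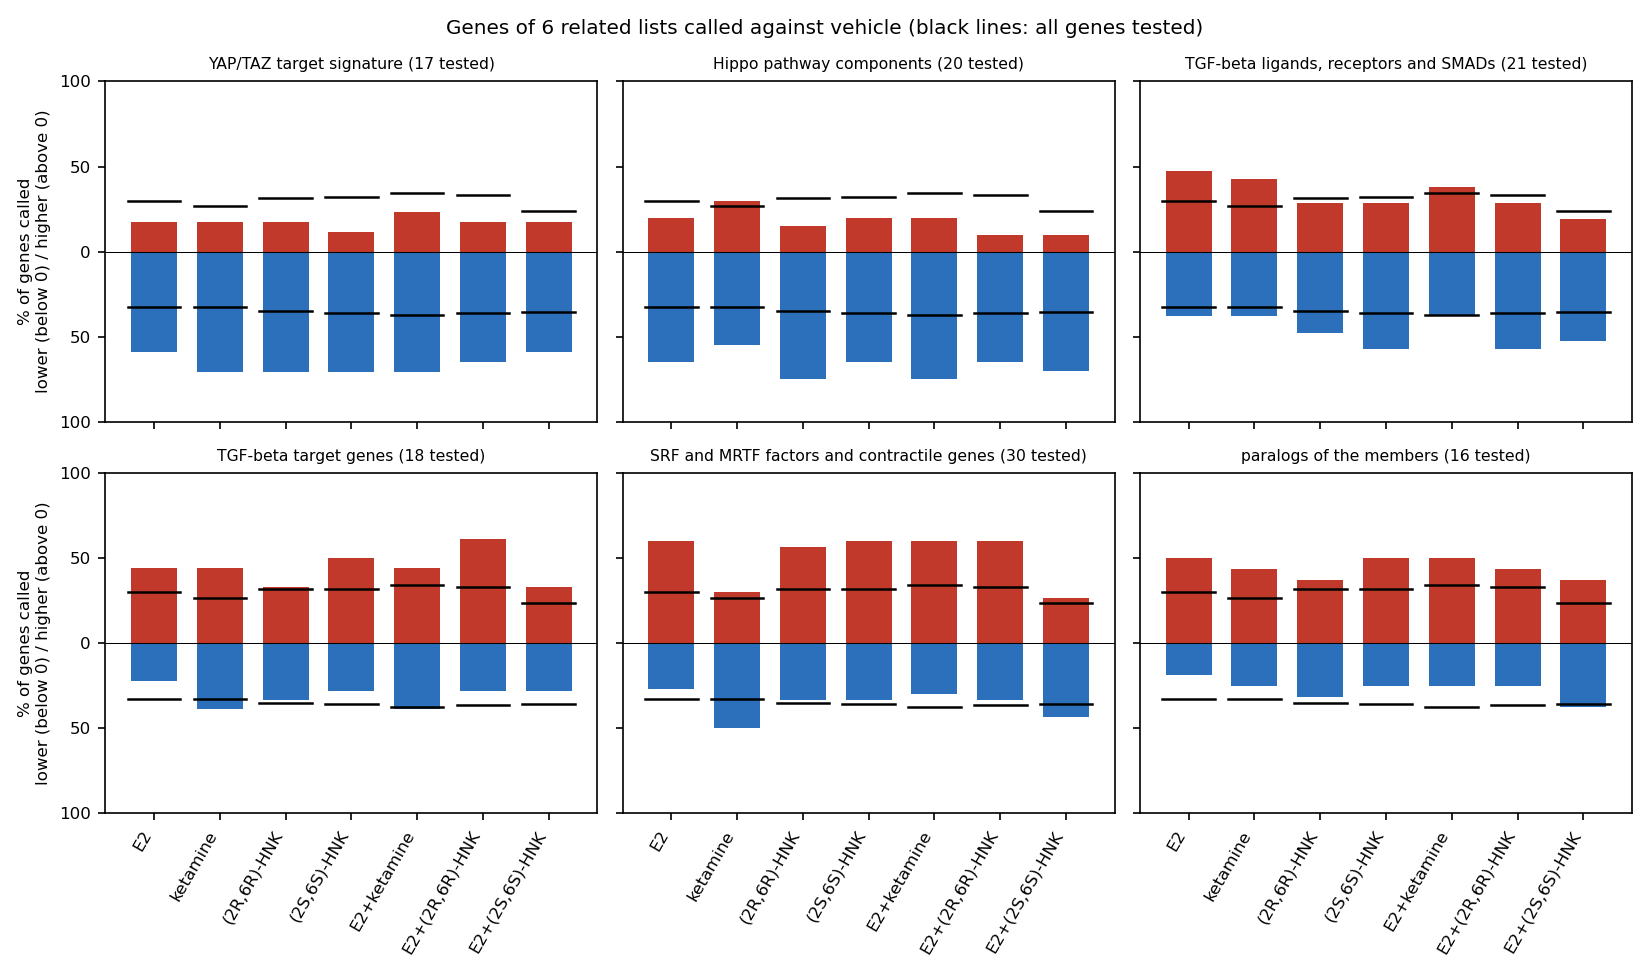
Share of genes called against vehicle in 6 related lists, higher above and lower below the zero line (vertical axis, percent of genes tested), for the 7 treatments. Black lines give the same shares over all genes tested. The YAP/TAZ signature and the Hippo list show lower calls of 55% or more in each treatment, against 32.5% to 37.4% of all genes.

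Finally, the members were related to each other and to other genes by the Pearson correlation of log2 CPM over the 16 libraries, as a description, since the libraries form 8 pairs and share the GC trend. TAGLN and CNN1 were the most alike (r = 0.942), followed by ANKRD1 and THBS1 (0.865) and by CTGF and ACTA2 (0.854). CYR61 ran opposite to THBS1 (-0.849), to ANKRD1 (-0.808) and to TGFBI (-0.774). Thus CTGF and CYR61, close relatives in one protein family, correlated at 0.58, and ANKRD1 correlated with CTGF at -0.31. Among 10366 other genes with a mean of at least 5 CPM, the one closest to CYR61 was FDPS (0.988), a cholesterol synthesis enzyme. The closest to THBS1 was NRG1 (0.984), to TGFBI MYLK (0.96), to ANKRD1 PFDN1 (0.989), to TAGLN MARS (0.984), to AMOTL2 DUSP3 (0.948), to ACTA2 ECE1 (0.944) and to CTGF CEMP1 (0.962). The closest gene to CNN1 was PCSK7 (0.97), the gene that overlaps TAGLN in the GENCODE models.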

How the data were processed

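The members and the gene lists were chosen with earlier results of these data known. Per the labels and the study's methods, RNA was amplified with the Ovation system, sequenced as 100 bp pairs and aligned to hg19, and the authors deposited gene counts from featureCounts without normalization. The submitters' processing notes name TopHat2 2.0.14, Bowtie2 2.2.6 and featureCounts 1.4.6. Strandedness is not given in the sources used here.

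Counts were tested in edgeR 4.0.16 (R 4.3.3) after filterByExpr and TMM scaling, in 1 quasi-likelihood model of the 8 group means (8 residual degrees of freedom, common coefficient of variation 2.81%), giving 19 comparisons with Benjamini-Hochberg adjustment over 16004 genes in each. With 2 libraries a group no permutation test can pass 0.05. DESeq2 1.42.0, other scalings and filters, the groups compared alone, a replicate block, a loess correction (span 0.5) for GC content and exon length, and each library left out were alternatives. A lone library left in a group was assumed to vary like the others. Named genes were all 9 members, the 4 most expressed genes of each list, YAP1 and SRF, of which 1 list gene is not reported here. Gene models were GENCODE on GRCh37 (21539 symbols matched directly, 1498 by an older symbol). The scripts were tested on simulated data for ketamine against vehicle. Without a GC trend, edgeR made 6 false calls (0.038%). With a GC trend added to the ketamine libraries, it made 7966 (50.4%) without the GC and length correction and 12 (0.0791%) with it. Such a trend is what the correction fits, so this was a check of the scripts and cannot tell where the trend in the data arose. Of simulated log2 changes of 0.25, 47% were recovered without a trend and 54.6% with the trend and the correction. The uncorrected calls are to be read beside the corrected ones.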

Additional observations from a re-analysis of the deposited data

Results flagged for a closer look

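The effect of a drug differed with and without E2 for 6 (ketamine), 7 and 8 (the enantiomers, (2R,6R)-HNK first) of the 9 genes, by the edgeR test of that difference itself (log2 effect with E2 minus log2 effect without it), where 37.5%, 56.6% and 65.1% of all genes were called. For ketamine the differences were 0.10 for CYR61, 0.78 for ANKRD1, 0.85 for TAGLN, -0.27 for THBS1, 0.62 for CNN1 and -1.10 for TGFBI. That of CYR61 lost its call under upper-quartile scaling (0.01, adjusted p = 0.745). For (2R,6R)-HNK they were 0.18 for CYR61, -0.30 for ANKRD1, -0.14 for AMOTL2, 0.07 for TAGLN, -1.26 for THBS1, -0.14 for CNN1 and -0.87 for TGFBI. That of TAGLN (adjusted p = 0.0254) lost its call without (2R,6R)-HNK replicate 1, E2 replicate 1, E2+(2R,6R)-HNK replicate 2 or vehicle replicate 1 (0.06 to 0.07, adjusted p = 0.0518 to 0.0952), in DESeq2 (0.03, adjusted p = 0.419), with DESeq2 size factors (0.03, adjusted p = 0.388) and under upper-quartile scaling (0.01, adjusted p = 0.779), and became 0.30 under the GC and length correction. Those of AMOTL2 (0.10) and CNN1 (0.20) turned under that correction, and that of ANKRD1 went to -0.64. For (2S,6S)-HNK they were -0.24 for CTGF, -0.28 for CYR61, 0.52 for ANKRD1, -0.17 for AMOTL2, -0.56 for TAGLN, -0.28 for THBS1, -0.44 for CNN1 and -0.26 for TGFBI. The GC and length correction turned those of ANKRD1 (-0.10, no longer called), AMOTL2 (0.33) and CNN1 (0.09). It shrank those of CTGF (-0.08), TAGLN (-0.07) and TGFBI (-0.13) and enlarged that of THBS1 (-0.53), all still called lower.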

How the results depend on the processing

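Where a log2 change of 1 was required too, the members called against vehicle numbered 0 with E2, ketamine, (2R,6R)-HNK and E2+ketamine, and 2 with (2S,6S)-HNK and with either metabolite plus E2. Between drugs they numbered 1 for ketamine against (2S,6S)-HNK and 0 in the other 5 pairs. Against E2 they numbered 0 with ketamine and 1 with each metabolite, and for the differences with and without E2 they numbered 0 for (2S,6S)-HNK and 1 for each of the other drugs. The counts of 0 come from the fold limit, since 6 or more members passed the edgeR test in each comparison. Of 171 member values, the GC and length correction left the call or its absence unchanged in 131. With the sign kept, it lost 6 calls and gained 11. It reversed the sign of 23 values that were called in at least 1 of the fits. Among those 23, CTGF and TAGLN with (2R,6R)-HNK and CNN1 with E2+ketamine also lost their call. So did ANKRD1 between the enantiomers given with E2 and in the difference for (2S,6S)-HNK, while AMOTL2 with (2R,6R)-HNK gained a call. Those 131 include the difference of CTGF for (2R,6R)-HNK with and without E2, which changed sign (-0.06 to 0.05) but was called in neither fit. The values reversed against vehicle were -0.258 (AMOTL2), -0.163 (TAGLN) and -0.211 (CNN1) with E2 and -0.218 (AMOTL2) with ketamine. With (2R,6R)-HNK they were -0.009 (CTGF), -0.341 (AMOTL2), -0.01 (TAGLN), 0.101 (THBS1) and -0.197 (CNN1), and with (2S,6S)-HNK -0.142 (CNN1). With E2+ketamine they were 0.139 (ANKRD1), -0.339 (AMOTL2) and -0.004 (CNN1), with E2+(2R,6R)-HNK -0.21 (CNN1) and with E2+(2S,6S)-HNK -0.057 (TAGLN). Between the enantiomers given with E2, ANKRD1 went to 0.093 and AMOTL2 to -0.082, and AMOTL2 went to -0.081 for E2+ketamine against E2. Of the differences with and without E2, AMOTL2 (0.103) and CNN1 (0.198) turned for (2R,6R)-HNK, and ANKRD1 (-0.099), AMOTL2 (0.332) and CNN1 (0.092) for (2S,6S)-HNK. The correction with the replicate block gave the same values, but for ANKRD1 at 0.096 and -0.101. The correction adjusts for GC content and exon length together, so which of them moved these values was not tested. Whether the GC trend arose in the cells or the libraries was not tested either. Upper-quartile scaling shifted the median of all genes by over 0.1 only for E2+(2S,6S)-HNK against vehicle (-0.064 to 0.04), and reversed AMOTL2 for E2+(2R,6R)-HNK (0.025) and CNN1 for E2+(2S,6S)-HNK (0.066) against vehicle. DESeq2 kept 163 of 171, and the fit without a filter kept all. Replicate numbers did not pair the libraries (correlations of -0.0258 to 0.0451 over 28 pairs of groups), and with the replicate block 170 of 171 kept their call, the exception being AMOTL2 between ketamine and (2R,6R)-HNK (0.055, adjusted p = 0.0585). Leaving out 1 library kept 761 of 792, lost 28 and gained 3. Depth limited ACTA2, with at most 197 counts in a library.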
